A study of Mus musculus with 6 samples.

Results

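The 8 genes described here are used as markers of thalamic neurons and were read in the forebrain transcriptomes of 6 mice. They were Tcf7l2, Slc17a6, Ntng1, Lhx9, Gbx2, Tnnt1, Rora and Zic1, taken by symbol from the 35275 gene identifiers of the deposited tables. All 8 were found, and all 8 passed the filter on low counts that left 16938 genes to test. The list was drawn up with earlier results of these data known, so its members are described beside all tested genes and no test was made of the list as a whole.

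The conditional knockout group (cKO) held 3 Pdgfra-CreER:Parp1 fl/fl mice, in which tamoxifen activates a Cre recombinase driven by the Pdgfra gene and Parp1, a poly(ADP-ribose) polymerase, is deleted. The control group held 3 littermates that were Parp1 fl/fl without Cre. All 6 were C57BL/6 mice, received tamoxifen on postnatal days 1 to 3, and gave RNA at postnatal day 9, from the forebrain per the labels' protocols. Pdgfra marks oligodendrocyte precursors and also some fibroblasts, and neurons are not the cells in which this Cre is meant to act. The controls carried no Cre, so an effect of Cre itself cannot be told apart from that of the deletion.

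The thalamus relays sensory and motor signals to the cortex through excitatory neurons, which load glutamate into vesicles with VGLUT2, the product of Slc17a6, whereas most cortical excitatory neurons use VGLUT1, the product of Slc17a7. The identity of these neurons is set by a small group of transcription factors: Gbx2 and Lhx9 act as young thalamic neurons leave the cell cycle, and Tcf7l2, a DNA-binding partner of beta-catenin in Wnt signalling, is kept on in the thalamus and habenula after birth. Tcf7l2 is also switched on for a time in oligodendrocytes that are starting to differentiate, so in forebrain RNA its reads do not come from neurons alone. Rora and Zic1 are used in the thalamus as well as in other regions, such as the cortex or the cerebellum for Rora and the septum or the cerebellum for Zic1. The other genes of the list are not taken here as confined to the thalamus either.

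Total counts ran from 19934003 to 29310193 in cKO libraries and from 17262042 to 22118915 in controls. Parp1, the targeted gene, averaged 79.8 ± 0.843 CPM (reads scaled to library size) in cKO mice and 91.2 ± 5.84 CPM in control mice (SD over 3 mice). Its log2 ratio was -0.19, and edgeR did not call it (adjusted p = 0.572). One control library stood apart in regional genes. All 14 striatal genes checked were lowest in control replicate 3, as were 26.2% of all tested genes. Ppp1r1b, which encodes a phosphoprotein of striatal projection neurons, stood at 221, 236 and 288 CPM in cKO and at 303, 243 and 39.6 CPM in control replicates 1, 2 and 3. Drd1, the D1 dopamine receptor, was at 42.8, 40.5 and 43.3 CPM in cKO and at 53.3, 39.7 and 12.3 CPM in the controls. The summed level of genes of neurons in general was 6153 to 6489 CPM in cKO and 6149 to 6722 CPM in control mice. A level sum does not mean that each of these genes was level. The hindbrain genes Hoxb3 and Hoxb5 had 0 counts in every library. The Y-linked gene Ddx3y had 0 or 1 reads in cKO and 1123, 1 and 0 in the 3 controls. Xist, on the X chromosome, had 20196, 25011 and 27661 reads in cKO and 3, 22701 and 22199 in the controls. By these genes control replicate 1 read as male and the other mice as female, and sex was not used in the fits.

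The levels of Tcf7l2 were the most uneven of the 8 genes. Tcf7l2 (ENSMUSG00000024985, chromosome 19, 55741820 to 55933654, plus strand, mm10) was at 33.5, 36.1 and 29.4 CPM in the 3 cKO forebrains and at 34.0, 28.9 and 144 CPM in control replicates 1, 2 and 3. Control replicate 3 was 3.98-fold above the next highest library, and the other 5 lay within 1.25-fold of each other, with both groups mixed among them. Mean and SD were 33.0 ± 3.38 CPM for cKO and 68.8 ± 64.7 CPM for control mice (n = 3 each). Their log2 fold change, cKO over control, was -1.07 (95% confidence interval -3.15 to 1.02), and Tcf7l2 was not called (edgeR adjusted p = 0.879; exact two-sided permutation p = 0.8). Without control replicate 3 the log2 fold change turned to 0.06, with an interval from -0.15 to 0.28 (edgeR adjusted p = 0.996, against 0.677 to 1 over all 19 alternatives). At n = 3 against 3, an exact test cannot give a p below 0.1.

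RefSeq lists 2 start sites for Tcf7l2, and the window from 250 bases before to 50 bases after each is shown because counts per gene do not separate transcripts from one start or the other. Lhx9 and the second start of Slc17a6 are shown because they, with the second start of Tcf7l2, were the member windows that held a searched motif. All are written 5′ to 3′ on the strand of the gene, from RefSeq on GRCm38.p6 (mm10), with the motif in capitals. In GENCODE M21 transcripts of each gene, the bases just after the start were found as written for Lhx9. For both Tcf7l2 starts and the second Slc17a6 start they were found in neither orientation, so these starts were not matched there.
Tcf7l2 first start, chr19:55741560-55741859, plus strand: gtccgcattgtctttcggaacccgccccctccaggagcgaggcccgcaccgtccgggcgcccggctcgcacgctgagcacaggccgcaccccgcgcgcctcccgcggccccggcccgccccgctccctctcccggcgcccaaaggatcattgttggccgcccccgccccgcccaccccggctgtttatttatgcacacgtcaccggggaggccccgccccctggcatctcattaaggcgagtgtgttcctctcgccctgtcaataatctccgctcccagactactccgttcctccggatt
Tcf7l2 second start, chr19:55895071-55895370, plus strand: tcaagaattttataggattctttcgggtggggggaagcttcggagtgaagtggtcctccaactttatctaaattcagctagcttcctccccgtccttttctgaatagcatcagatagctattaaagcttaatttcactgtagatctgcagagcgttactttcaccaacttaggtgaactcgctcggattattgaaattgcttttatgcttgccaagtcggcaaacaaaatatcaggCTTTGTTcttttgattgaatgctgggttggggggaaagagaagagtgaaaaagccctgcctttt
Lhx9, chr1:138842395-138842694, minus strand: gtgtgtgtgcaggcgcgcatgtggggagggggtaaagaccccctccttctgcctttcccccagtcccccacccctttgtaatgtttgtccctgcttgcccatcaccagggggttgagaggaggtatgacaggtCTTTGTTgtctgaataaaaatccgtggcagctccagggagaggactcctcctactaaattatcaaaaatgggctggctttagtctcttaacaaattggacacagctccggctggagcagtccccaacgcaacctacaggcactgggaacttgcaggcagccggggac
Slc17a6 second start, chr7:51624387-51624686, plus strand: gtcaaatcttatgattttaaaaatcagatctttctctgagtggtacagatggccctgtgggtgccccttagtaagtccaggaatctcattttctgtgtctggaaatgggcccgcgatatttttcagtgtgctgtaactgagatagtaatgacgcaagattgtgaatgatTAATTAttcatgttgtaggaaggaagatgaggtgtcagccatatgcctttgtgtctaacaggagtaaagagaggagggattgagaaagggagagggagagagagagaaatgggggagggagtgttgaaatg

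Windows were matched by symbol for all 8 genes, 10 windows in all, and motifs were searched on both strands. CTTTGTT, a sequence bound by TCF and LEF factors, was found once in the window of Lhx9 and once in that of the second Tcf7l2 start, and 5.85% of all 32851 windows hold it. TAATTA, a core bound by many homeodomain proteins, was found once in the second Slc17a6 window, against 5.29% of all windows. The other TCF/LEF forms CTTTGAT and CTTTGA, the ROR element AGGTCA and the ZIC sequence CCTGCTG occurred in none (0) of the 10 windows, against 3.73%, 16%, 16.3% and 10.5% of all windows. CTTTGA lies within CTTTGAT, so these 2 are not separate counts. The first Tcf7l2 window held 70.0% G and C and the second 42.0%, against a median of 52.7% over all windows.

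The excitatory neuron genes showed the same layout as Tcf7l2. Slc17a6 (ENSMUSG00000030500, chromosome 7, 51622006 to 51671119) was at 56.7, 63.5 and 43.7 CPM in cKO and at 66.2, 51.1 and 174 CPM in control replicates 1, 2 and 3. The third control was 2.63-fold above the next library, and cKO replicate 3 was the lowest of the 6. Between groups the log2 fold change was -0.83 (95% confidence interval -2.38 to 0.72, edgeR adjusted p = 0.870) with all libraries and -0.11 (-0.64 to 0.42) without control replicate 3. Slc17a6 also had the widest spread of the 8 genes over the other 5 libraries, with a highest value 1.51-fold above the lowest.

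Ntng1 (ENSMUSG00000059857, chromosome 3, 109780040 to 110144011) encodes netrin-G1, a membrane-anchored protein of thalamocortical axons that binds the ligand encoded by Lrrc4c. Its level was 24.3, 27.8 and 23.5 CPM in cKO and 25.6, 24.5 and 81.2 CPM in control mice. The 5 libraries other than control replicate 3 fell within 1.18-fold of each other, and that library was 2.92-fold above the highest of them. For Ntng1 the log2 fold change was -0.80 (95% confidence interval -2.39 to 0.79, edgeR adjusted p = 0.882), and 0.00 (-0.20 to 0.21) without control replicate 3. Lrrc4c itself averaged 117.6 ± 11.04 CPM in cKO and 111 ± 1.74 CPM in control mice.

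Lhx9 and Gbx2, the early thalamic factors, were also highest in control replicate 3. Lhx9 (ENSMUSG00000019230, chromosome 1, 138825186 to 138848577), a LIM-homeodomain factor, was at 11.3, 11.8 and 10.3 CPM in cKO and at 10.6, 8.88 and 35.1 CPM in control mice. Control replicate 3 was 2.97-fold above the next library, control replicate 2 was lowest, and the log2 fold change was -0.72 (95% confidence interval -2.42 to 0.98, edgeR adjusted p = 0.902). Without control replicate 3 it was 0.19 (-0.11 to 0.48).

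Gbx2 (ENSMUSG00000034486, chromosome 1, 89927956 to 89931179), a homeodomain factor needed for thalamic axons to reach the cortex, was at 2.12, 2.34 and 2.09 CPM in cKO and at 1.96, 2.02 and 6.11 CPM in control mice. These rest on 34 to 60 reads in 5 libraries and 134 in control replicate 3. For Gbx2 the log2 fold change was -0.64 (95% confidence interval -1.63 to 0.35, edgeR adjusted p = 0.862), and 0.12 (-0.42 to 0.67) without control replicate 3. With that library left out the cKO values all lay above the controls, a separation without overlap also seen in 20.8% of all tested genes. Of the exon length of Gbx2, 43.5% overlaps D130058E05Rik on the opposite strand, and the strand setting of the counting is not given in the sources used here. D130058E05Rik had 5 to 15 reads in 5 libraries and 21 in control replicate 3.

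Tnnt1 (ENSMUSG00000064179, chromosome 7, 4504570 to 4516382) encodes the slow skeletal muscle form of troponin T and is used in mouse brain as a thalamic marker. It had 0.740, 0.767 and 0.870 CPM in cKO and 0.924, 0.782 and 2.19 CPM in control mice. The counts behind them were 15, 19 and 25 reads in cKO and 16, 17 and 48 in controls, so small differences among the 5 low libraries were not detectable at this depth. For Tnnt1 the log2 fold change was -0.72 (95% confidence interval -1.60 to 0.16, edgeR adjusted p = 0.837), and -0.10 (-0.93 to 0.73) without control replicate 3. Tnni1, which encodes the troponin I of slow muscle, had 6 to 15 reads per library, too few to be tested.

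Rora and Zic1 differed from the other 6 genes in size. Rora (ENSMUSG00000032238, chromosome 9, 68653786 to 69388246), a nuclear receptor, was at 56.3, 62.9 and 62.0 CPM in cKO and at 60.2, 57.7 and 75.2 CPM in control mice. Control replicate 3 was again the highest, but only 1.2-fold above the next library. For Rora the log2 fold change was -0.09 (95% confidence interval -0.30 to 0.12, edgeR adjusted p = 0.905), and 0.03 (-0.12 to 0.18) without control replicate 3. This was the narrowest of the 8 intervals with all libraries.

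Zic1 (ENSMUSG00000032368, chromosome 9, 91358058 to 91365810), a zinc finger factor, was at 70.4, 81.1 and 78.5 CPM in cKO and at 65.9, 68.0 and 92.5 CPM in control mice. Control replicate 3 was 1.14-fold above the next library, and control replicates 1 and 2 were the lowest of the 6. For Zic1 the log2 fold change was 0.02 (95% confidence interval -0.27 to 0.32, edgeR adjusted p = 0.987). Without control replicate 3 it was 0.19 (0.04 to 0.34), and the cKO values all lay above the controls. Groups without overlap were seen in 20.8% of all tested genes there. The unadjusted edgeR p was 0.0159, but Zic1 was not called (edgeR adjusted p = 0.632, against 0.632 to 1 over the 19 alternatives). Zic1 shares 60 bp of exon with Zic4, which lies on the other strand, and Rora shares 82 bp with an antisense gene.

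**Figure D1:**
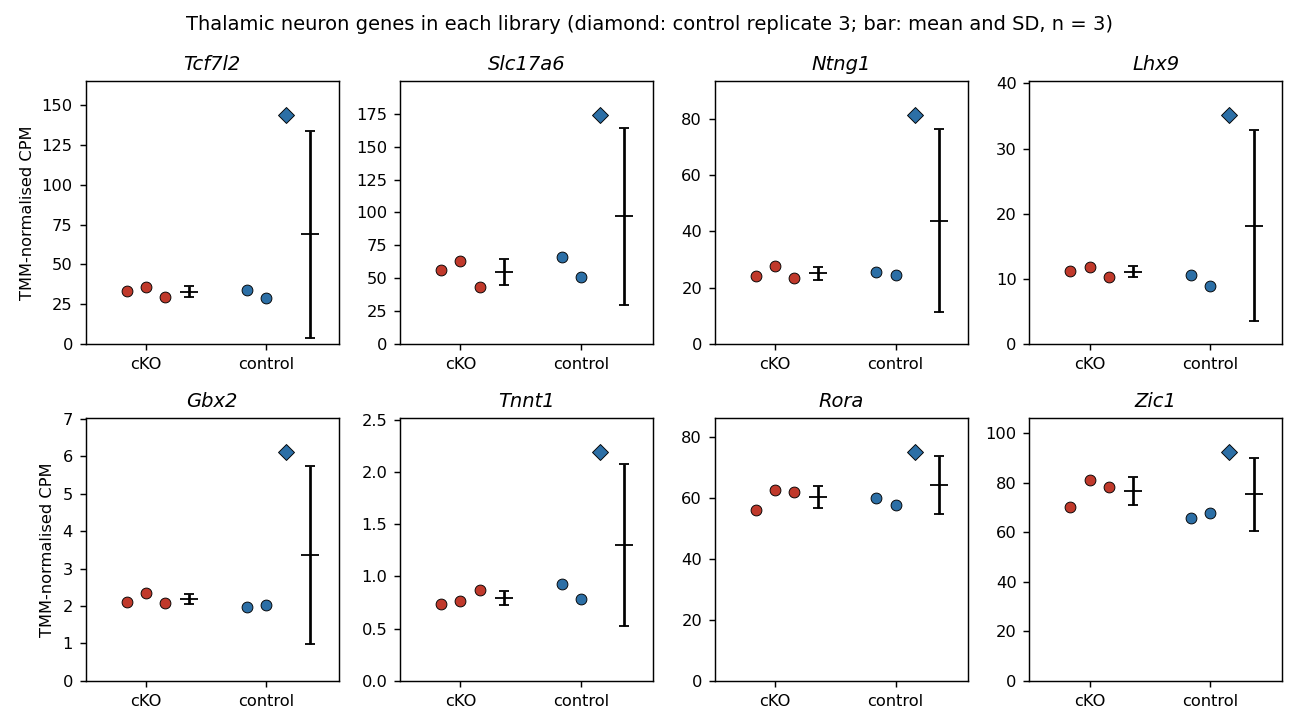
Each panel plots 1 gene in TMM-normalised CPM on its own linear axis from 0, with the 3 cKO libraries on the left and the 3 control libraries on the right of it. Points are libraries, the diamond is control replicate 3, and the bar gives mean and SD over n = 3; the diamond is the highest point in all 8 panels, by 3.98-fold over the next for Tcf7l2 and by 1.14-fold for Zic1.

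None (0) of the 8 genes was called between cKO and control by edgeR's quasi-likelihood test, where 0.266% of all tested genes were called (0.0590% higher and 0.207% lower in cKO). An unadjusted p under 0.05 was reached by 0 of the 8 in edgeR, 0 in DESeq2 and 0 in limma-voom, and DESeq2 and limma-voom called 0 of the 8 too; 6.27% of all tested genes had such a p by edgeR. The values of the groups overlapped for every one of the 8, while 11.9% of all tested genes had groups that did not overlap, 6.08% with all cKO above all controls and 5.86% with all below. The log2 fold change was negative for 7 of the 8, with a median of -0.72 against -0.0007 over all tested genes. Without control replicate 3 it was negative for 2 and positive for 6, with a median of 0.05 against -0.0004 over all genes, and again 0 were called, where 0.349% of all genes were (0.0932% higher and 0.256% lower in cKO); 1 of the 8, Zic1, then had an unadjusted p under 0.05 by edgeR, as did 5.78% of all genes. In bulk tissue, fewer cells of a type and less RNA per cell cannot be told apart.

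**Figure D2:**
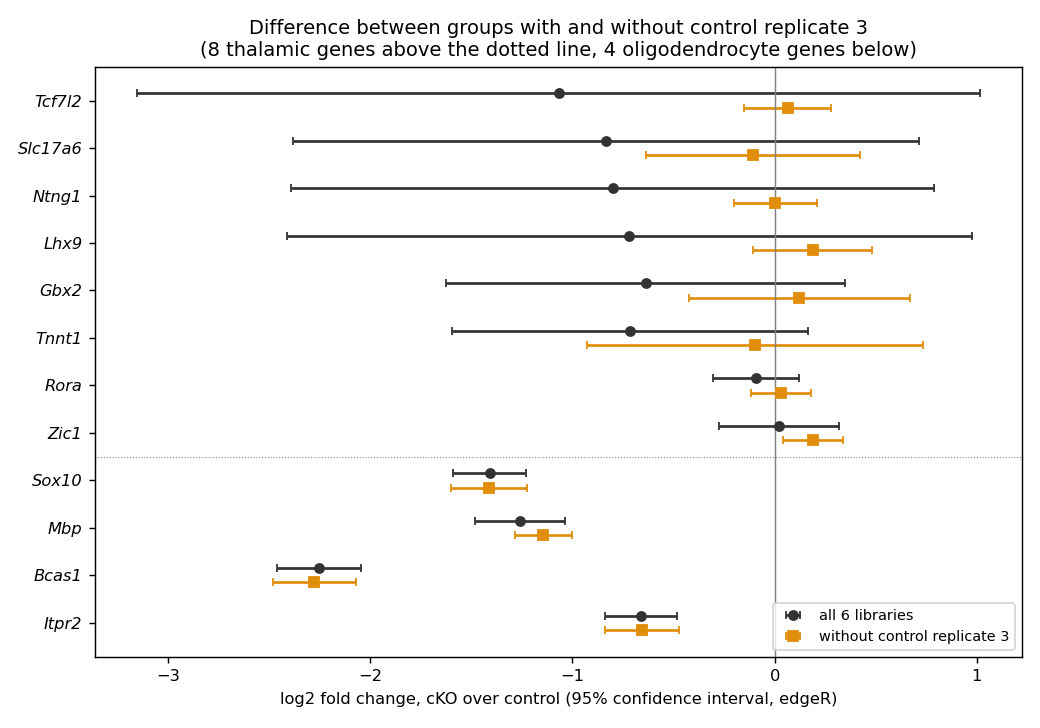
The log2 fold change of cKO over control (horizontal axis) is plotted with its 95% confidence interval for the 8 thalamic genes and, below the dotted line, 4 oligodendrocyte genes, with all 6 libraries (circles) and without control replicate 3 (squares). For Tcf7l2 the interval runs from -3.15 to 1.02 with all libraries and from -0.15 to 0.28 without that control, while Sox10 stays at -1.41 in both.

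All 8 genes were highest in control replicate 3, as were 25.8% of all tested genes, and 6 of the 8 were at least 2-fold above every other library there, as were 0.419% of all tested genes. Together the 8 genes took 0.0246% to 0.0285% of the counts in cKO libraries, and 0.0266%, 0.0244% and 0.0604% in control replicates 1, 2 and 3. The other 5 libraries lie close together, so the wide spread of the controls lies in 1 animal. Over those 5 libraries the coefficient of variation ran from 4.69% for Rora to 16.3% for Slc17a6.

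Genes of other regions and of microglia also set that library apart. Of the 4 tested midbrain and hindbrain genes all were highest there, and Slc6a3, the dopamine transporter, was at 1.43, 1.01 and 1.08 CPM in cKO and at 1.39, 1.56 and 20.6 CPM in control mice. The midbrain factors Gata3 and Pax7, too low to be tested, had 2 to 5 and 0 to 1 reads in cKO libraries, and at most 2 and 3 in control replicates 1 and 2 against 49 and 38 in control replicate 3. The summed level of the tested midbrain and hindbrain genes was 5.23 to 6.75 CPM in cKO and 6.24, 7.59 and 39.7 CPM in control mice, and that of the 14 striatal genes was 992 to 1111 CPM in cKO and 1252, 991 and 346 CPM in control mice. Of 8 tested hypothalamic genes 6 were highest there. The hypothalamic peptide genes Pmch and Hcrt, too low to be tested, had 3 to 4 and 5 to 10 reads in cKO libraries, and 1, 0 and 88 reads of Pmch and 2, 3 and 75 of Hcrt in the controls. All 8 microglial genes were lowest in control replicate 3, as were 26.2% of all tested genes. The summed microglial levels were 322 to 385 CPM in cKO and 314, 274 and 219 CPM in control mice. The part of these differences in the values of the 8 genes was not tested.

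**Figure D3:**
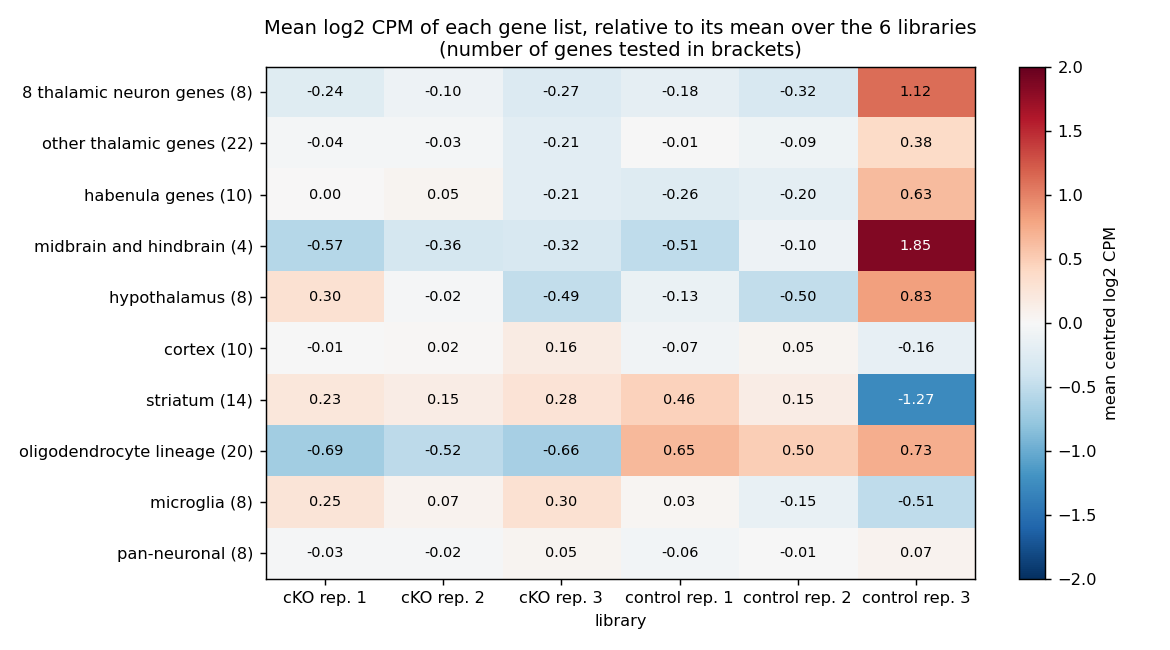
Colour and number give the mean log2 CPM of the tested genes of each list in each library, relative to the list's mean over the 6 libraries, with cKO libraries in the first 3 columns. In control replicate 3 the 8 thalamic genes stand at 1.12 and the striatal genes at -1.27, while the oligodendrocyte genes run from -0.69 to -0.52 in cKO and from 0.50 to 0.73 in controls.

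Per length, Slc17a6 and Zic1 were the most abundant of the 8 genes in cKO and Tnnt1 the least. In the deposited FPKM, which divide reads by gene length and library total, cKO forebrains held 13.6 ± 0.812 of Zic1, 12.6 ± 2.42 of Slc17a6 and 7.98 ± 0.885 of Tcf7l2, against 13.5 ± 2.51, 22.4 ± 15.2 and 16.6 ± 15.5 in controls (SD, n = 3 mice each). Zic1 and Slc17a6 did not differ beyond their spread. Rora was at 5.53 ± 0.247 FPKM in cKO and 5.92 ± 0.815 FPKM in controls, and Ntng1 at 4.50 ± 0.416 FPKM in cKO and 7.80 ± 5.71 FPKM in controls. Lhx9 was at 2.25 ± 0.184, Gbx2 at 1.02 ± 0.0662 and Tnnt1 at 0.745 ± 0.0523 FPKM in cKO, against 3.67 ± 2.92, 1.57 ± 1.10 and 1.22 ± 0.718 FPKM in controls. Slc17a7, the cortical counterpart of Slc17a6, was at 174 ± 13.2 FPKM in cKO and 166 ± 15.3 FPKM in controls, so VGLUT1 transcripts far outnumbered VGLUT2 transcripts in every library. The FPKM ratio of Slc17a6 to Slc17a7 was 0.0784, 0.0895 and 0.0526 in cKO and 0.101, 0.0654 and 0.246 in controls.

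Ratios within a library show which of the 8 genes kept their proportion to Slc17a6 in control replicate 3. For Ntng1 the FPKM ratio to Slc17a6 was 0.332, 0.339 and 0.416 in cKO and 0.299, 0.371 and 0.361 in controls, so control replicate 3 lay inside the range of the other 5 libraries. The same held for Lhx9, at 0.177 in that library against 0.140 to 0.205 in the others, for Gbx2, at 0.0712 against 0.0600 to 0.0966, and for Tnnt1, at 0.0514 against 0.0493 to 0.0811. Tcf7l2 lay above that range: its ratio was 0.618, 0.595 and 0.704 in cKO and 0.538, 0.592 and 0.865 in controls. Rora and Zic1 lay below it, at 0.172 and 0.410 in control replicate 3 against 0.361 to 0.563 and 0.768 to 1.38 in the other 5. These are descriptions of 1 library, with no test.

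Tcf7l2 was also read beside genes of the oligodendrocyte lineage, in which it is expressed too. Of 20 lineage genes 14 were called lower in cKO by edgeR, as were 0.207% of all tested genes. Among the 14 was Sox10, the factor that drives differentiation in this lineage, whose log2 ratio was -1.41 (interval -1.59 to -1.23, edgeR adjusted p = 3.06e-06). Bcas1 and Enpp6, which mark cells starting to myelinate, fell by 2.25 and 2.1 on the log2 scale, and Mbp, myelin basic protein, by 1.26. Itpr2, a calcium channel of newly formed oligodendrocytes, fell by 0.66, while Nkx2-2, a lineage factor, had -1.06 and was not called (edgeR adjusted p = 0.0642). Without control replicate 3, 13 of the 20 were called lower, as were 0.256% of all tested genes. Sox10 was then at -1.41 and Itpr2 at -0.66 on the log2 scale. Not every lineage gene was called lower: Mog, a glycoprotein of mature myelin, was at 8.14, 7.71 and 7.37 CPM in cKO and 5.77, 8.33 and 9.03 CPM in control mice. Its log2 ratio of 0.11 without control replicate 3 (interval -0.25 to 0.48) lay within the interval of Tcf7l2 in that fit, -0.15 to 0.28, and 19 of the 20 genes were negative there.

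The within-library FPKM ratio of Tcf7l2 to Sox10 was 1.31, 1.39 and 1.17 in cKO and 0.469, 0.456 and 2.11 in control replicates 1, 2 and 3. This ratio restates the fall of Sox10 beside a level Tcf7l2 in 5 libraries and is given as a description. Exact permutation tests of its log2 value gave p = 0.4 with all libraries and p = 0.1, the smallest possible, without control replicate 3. Because the ratio restates Sox10, nothing is read from these tests. The mean log2 ratio of Tcf7l2 to Slc17a6, cKO minus control, differed by -0.03 with all libraries (p = 1) and by 0.175 without control replicate 3 (p = 0.2, exact permutation tests). These counts do not tell apart the Tcf7l2 transcripts of neurons, of oligodendrocytes and of any other cells.

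**Figure D4:**
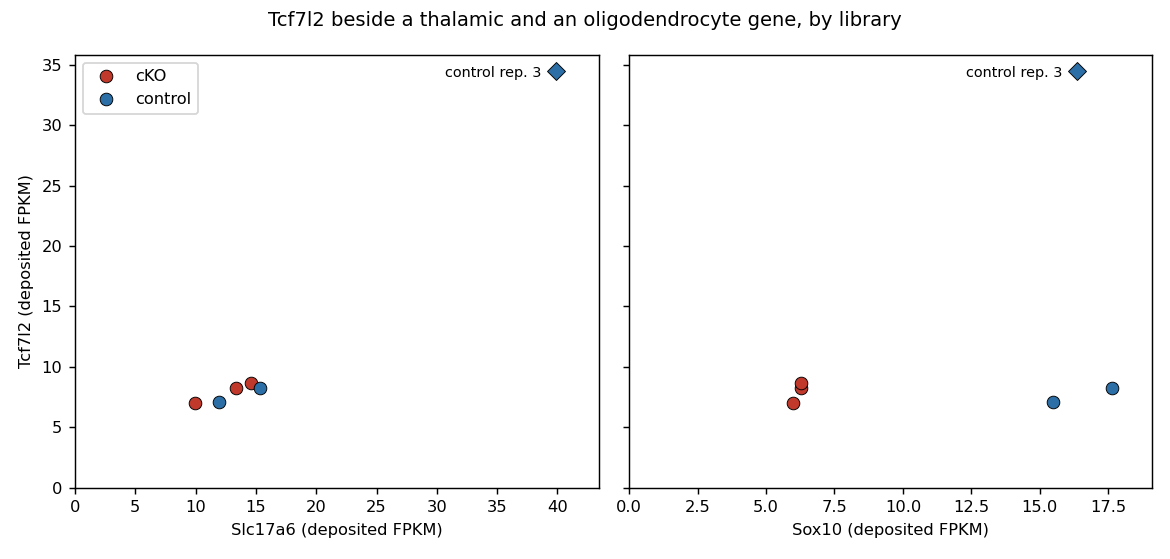
Tcf7l2 (vertical axis) is plotted against Slc17a6 on the left and Sox10 on the right, all in deposited FPKM, with 1 point per library and a diamond for control replicate 3. The 3 cKO and the other 2 control libraries lie at 6.99 to 8.70 FPKM of Tcf7l2 in both panels, whereas Sox10 is at 5.97 to 6.29 FPKM in cKO and at 15.5 to 17.6 FPKM in controls.

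Other genes of thalamic neurons were less uniform. Of 22 such genes, all tested, none (0) was called by edgeR, where 0.266% of all tested genes were called. An unadjusted p under 0.05 was reached by 5 in edgeR, 4 lower and 1 higher in cKO, against 6.27% of all tested genes. DESeq2 and limma-voom gave 4 each and called 0. The median log2 fold change of the 22 was -0.19, and 0.04 without control replicate 3. In that fit 3 had an unadjusted p under 0.05 by edgeR, against 5.78% of all tested genes. Control replicate 3 was highest for 15 of the 22, as for 25.8% of all tested genes. It was at least 2-fold above every other library for 4, as for 0.419% of all tested genes. It was lowest for 4, where 26.2% of all tested genes were lowest in it, so the thalamic markers were not all high in that library.

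Slc6a4, the serotonin transporter that thalamic sensory neurons carry for a time after birth, was at 0.839, 0.525 and 0.348 CPM in cKO and 0.808, 0.874 and 3.15 CPM in control mice. Its log2 fold change of -1.55 had an interval below 0 (-2.87 to -0.23, edgeR adjusted p = 0.719), which included 0 without control replicate 3 (-0.61, -1.59 to 0.37). Serotonin neurons of the hindbrain also express it, and 10 to 19 reads lay behind each of the 5 low values. Calb2, the calcium-binding protein calretinin, was at 70.7, 66.4 and 55.0 CPM in cKO and 60.5, 64.8 and 162 CPM in control mice (log2 ratio -0.59, edgeR adjusted p = 0.893). Kitl, the ligand of the Kit receptor, averaged 71.8 ± 5.35 CPM in cKO and 84.0 ± 21.6 CPM in control mice, and control replicate 3 was the highest at 109 CPM.

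Vipr2, a receptor for the peptide VIP, had the smallest p of the 22 and did not depend on control replicate 3 for its direction. It was at 2.02, 2.18 and 2.30 CPM in cKO and 3.29, 3.68 and 4.47 CPM in control mice. The groups did not overlap, as was so for 11.9% of all tested genes. For Vipr2 the log2 fold change was -0.82 (95% confidence interval -1.27 to -0.36, edgeR adjusted p = 0.264), and -0.69 (-1.18 to -0.20) without control replicate 3. Prkcd, a protein kinase C, lay the other way, at 39.5, 38.9 and 37.8 CPM in cKO and 33.5, 34.5 and 29.7 CPM in control mice (log2 fold change 0.25, edgeR adjusted p = 0.507), also without overlap. Rgs16, a regulator of G-protein signalling, was at -0.46 on the log2 scale (edgeR adjusted p = 0.785), and 10.1% of its exon length overlaps an antisense gene. Rorb, a relative of Rora that is strong in cortical layer 4 as well as the thalamus, was lowest in control replicate 3, at 41.1 CPM there against 55.8 to 68.6 CPM in cKO and 59.8 and 59.4 CPM in the other controls. Cacna1g, a T-type calcium channel gene, was level, at 223 ± 5.51 CPM in cKO and 211 ± 13.6 CPM in control mice.

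**Figure D5:**
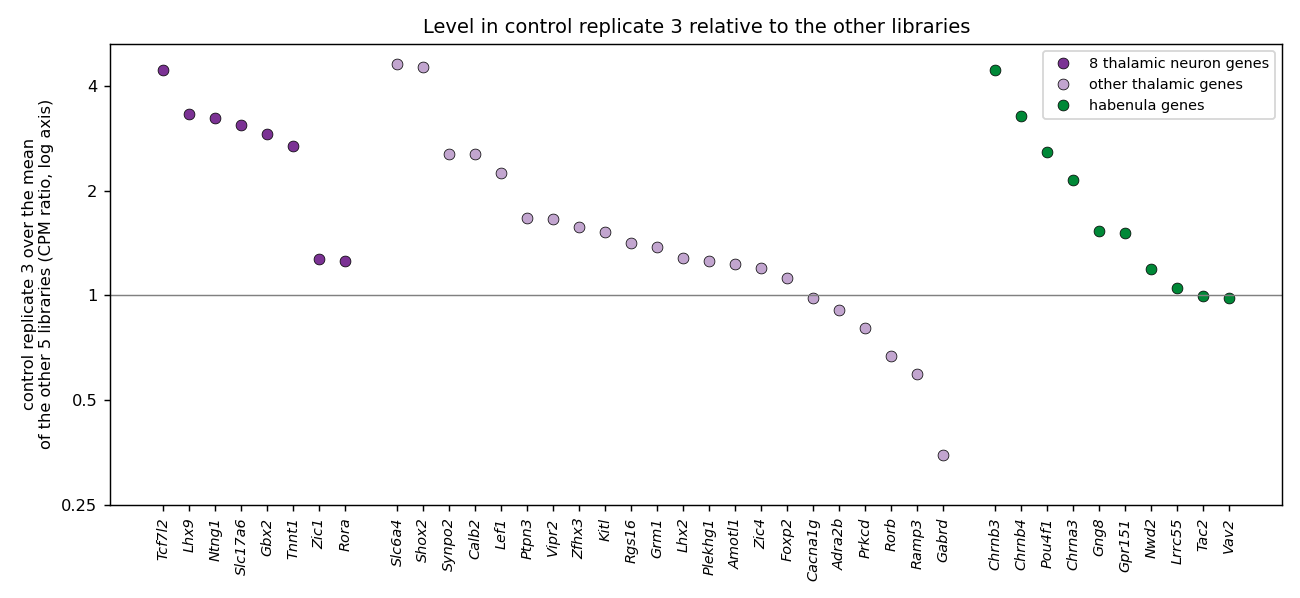
The vertical axis, a log axis, gives the CPM in control replicate 3 divided by the mean of the other 5 libraries, with 1 point per gene for the 8 thalamic neuron genes, 22 other thalamic genes and 10 habenula genes. Tcf7l2 is at 4.43 and Rora at 1.26, and the other thalamic genes run from above 4 for Slc6a4 and Shox2 to below 0.5 for Gabrd.

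The habenula, which lies beside the thalamus and also depends on Tcf7l2, was read through 10 genes. None (0) was called by edgeR, DESeq2 or limma-voom, and 0 had an unadjusted p under 0.05 by any of them. Control replicate 3 was highest for 6 of the 10, as for 25.8% of all tested genes. It was at least 2-fold above every other library for 3, as for 0.419% of all tested genes. These 3 were the nicotinic receptor genes Chrnb3 and Chrnb4 and the transcription factor Pou4f1. Chrnb3 and Chrnb4 had 5 to 13 and 3 to 15 reads in the other libraries. Both passed the count filter only through control replicate 3, so nothing is read from their place among the 3. Pou4f1 was at 1.18, 1.33 and 1.25 CPM in cKO and 1.16, 0.644 and 2.88 CPM in control mice. Chrna3, a further nicotinic subunit, was at 4.98, 5.69 and 5.67 CPM in cKO and 5.08, 4.46 and 11.1 CPM in control mice. The habenula genes Nwd2, Vav2, Lrrc55 and Tac2, which have other sites of expression, had log2 fold changes from -0.06 to 0.05.

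Relatives and binding partners of the 8 genes did not share the pattern as a group. Of 24 such genes 22 were tested, none (0) was called by edgeR, DESeq2 or limma-voom, and 0 had an unadjusted p under 0.05 by any of them. Lef1, Lhx2, Rorb and Zic4 are also among the 22 other thalamic genes above, so the lists are not separate sets. Without control replicate 3, edgeR called 0, and 5.78% of all tested genes had an unadjusted p under 0.05. Of the 22 genes here 2 had such a p, both relatives of Zic1 and higher in cKO. They were Zic2, with a log2 ratio of 0.25 (edgeR adjusted p = 0.571), and Zic4, with 0.26 (edgeR adjusted p = 0.631). With all libraries the median log2 fold change was 0.08, and none (0) was at least 2-fold above every other library in control replicate 3. Among TCF and LEF factors, Lef1 was at 7.005, 8.16 and 4.97 CPM in cKO and 6.81, 5.47 and 14.6 CPM in control mice, whereas Tcf7 and Tcf7l1 in control replicate 3, at 4.93 and 3.51 CPM, lay below the highest other library. An antisense gene overlaps 13.7% of the exon length of Lef1. Ctnnb1, which encodes beta-catenin, averaged 626 ± 34.8 CPM in cKO and 665 ± 34.2 CPM in control mice. Ntng2, the paralog of Ntng1, was at 25.8, 30.9 and 29.3 CPM in cKO and 31.8, 31.7 and 33.6 CPM in control mice, which is -0.17 on the log2 scale (edgeR adjusted p = 0.817). Zic4, which neighbours Zic1 on the opposite strand, kept an FPKM ratio to Zic1 of 0.489, 0.410 and 0.406 in cKO and 0.406, 0.415 and 0.399 in controls. Lrrc4 and Lrrc4b, which encode relatives of the netrin-G ligand, had log2 fold changes of 0.09 and -0.01.

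The genes most like Tcf7l2 and Slc17a6 were sought among 12065 genes with a mean of at least 5 CPM, by the root-mean-square difference of log2 CPM profiles over the 6 libraries, each centred on its own mean. The 8 nearest to Tcf7l2 were, in order, Cbln4, Lhx9, Ntng1, Slc17a6, Nrn1, Nhlh2, Nr2f2 and Gabrq, at differences from 0.0842 to 0.311. Cbln4, a secreted synaptic organiser of the cerebellin family, was at 11.99, 11.91 and 10.99 CPM in cKO and 13.5, 10.1 and 49.5 CPM in control mice. The 8 nearest to Slc17a6 were Fign, Ntng1, Nhlh2, Nrn1, Nr2f2, Lhx9, Synpo2 and Gabrq, at differences from 0.122 to 0.190. Nhlh2, at 3.65 to 5.03 CPM in cKO and 4.50, 4.74 and 12.4 CPM in control mice, and Gabrq, at 3.83 to 5.13 CPM in cKO and 4.16, 3.96 and 11.1 CPM in control mice, reached a mean of 5 CPM only through control replicate 3, so nothing is read from what the lists share. Rora and Zic1 ranked 661 and 641 in likeness to Tcf7l2 with the low genes of the 8 added to those compared. When control replicate 3 was left out, none (0) of the 8 nearest genes of either list was among the 8 nearest over the other 5 libraries, so the likeness rests on that library.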

How the data were processed

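Per the labels' protocols, polyadenylated RNA of 6 forebrains went into strand-specific libraries. The authors deposited counts, which are whole numbers of reads for each Ensembl identifier. The submitters' processing notes name STAR 2.5, HTSeq 0.6.1, CASAVA, DESeq and the build mm10, and give no roles. The deposited FPKM values equalled count over 1 fixed length per gene and the table's total, with that length whole within 0.01 bp in 100% of values, so both tables hold 1 measurement. Of 35275 identifiers, 34490 had a name in GENCODE M21 (mm10), which gave the coordinates; identifiers without a name took part in the tests.

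Genes were filtered by filterByExpr (minimum count 10, minimum total 15), scaled by TMM and tested with edgeR 4.0.16 in R 4.3.3 by the robust quasi-likelihood test, cKO against control, two-sided, with Benjamini-Hochberg adjustment over all tested genes. Called means an adjusted p under 0.05. CPM are TMM-normalised. Alternatives used DESeq2 1.42.0, limma 3.58.1 and limma on log2(FPKM + 1) and log2(FPKM + 0.1). The fit was tested on simulated data. In that simulation no library stood apart, so it does not show how the fit treats genes raised in 1 library. The labels give no litter or dissection record for single mice, and p-values measure the spread between these mice.

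The 8 genes, the other lists and the comparisons were chosen with earlier results of these data known. The naming rule took the 8 genes; of each of the 3 other lists the 4 genes with the smallest p and the 4 with the highest mean CPM; the 8 nearest profiles to Tcf7l2 and to Slc17a6; and Sox10, Mbp, Bcas1, Enpp6, Nkx2-2, Itpr2, Ppp1r1b, Drd1 and Parp1. Not every gene the rule took is reported here. Lef1, Zic2, Zic4, Mog, Pmch, Hcrt, Tcf7, Tcf7l1, Shox2, Gabrd, Slc6a3, Gata3, Pax7, Hoxb3, Hoxb5, Tnni1, D130058E05Rik and Ddx3y were named after their values were seen. FPKM were used to compare levels between genes and CPM for all else.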

Additional observations from a re-analysis of the deposited data

How the results depend on the processing

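Of 152 values of the 8 genes under 19 alternatives, 138 kept their direction and their side of the threshold, and 0 was called. Adjusted p ran from 0.537 to 1. The 14 reversals came from leaving out a library or from a covariate. When 1 library was left out, the log2 fold change of Tcf7l2 ran from -1.44 to 0.0641, Rora from -0.17 to 0.0313, Gbx2 from -0.91 to 0.12, Lhx9 from -1.05 to 0.19, Ntng1 from -1.09 to 0.0043 and Zic1 from -0.065 to 0.19. For the first 5 of these the value above 0 is the one without control replicate 3; Zic1 was below 0 without control replicate 1 or 2 or cKO replicate 2. With the mean of the 22 other thalamic genes as a covariate, Slc17a6 was at 0.0279, Tcf7l2 at 0.19, Rora at 0.0438, Gbx2 at 0.185, Lhx9 at 0.29 and Ntng1 at 0.0893.

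The 45 calls over all genes became 111 without a filter, 113 by DESeq2, 24 on either log2(FPKM + 1) or log2(FPKM + 0.1) with a mean of at least 0.5 FPKM, and 17 on log2(FPKM + 1) without a filter; the cause was not tested. Leaving out 1 library gave from 28 calls (without control replicate 1) to 60 calls (without control replicate 3). Same-numbered samples had deviations correlated at 0.004, -0.046 and 0.007. With 3 mice per group such values cannot decide whether the numbers pair the mice. The replicate block gave 32 calls, 0 of them among the 8 genes. The lists of other thalamic, habenula and related genes had 0 calls under each of the 19 alternatives. Tnnt1 and Gbx2 are limited by depth, with at most 60 reads in each library but control replicate 3.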
